A study of Rattus norvegicus with 30 samples.

Results

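Matricellular genes encode secreted proteins that sit among the structural fibers of the extracellular matrix and act mainly on cells and on matrix assembly rather than bearing load. The set described here was chosen by name, with earlier results of these data known: Tnc, Tnn, Tnxb, Postn, Thbs1, Thbs2, Thbs4, Comp, Spp1 and Sparc, where present in the gene count table. Of these 10 symbols, 9 were found among the 13124 genes of the table, and all 9 passed the filter on low values, a group mean of 3 CPM or more (CPM, a gene's count per 1e+06 counts of its library after scaling) in at least 1 group. Tnxb was not analysed here. The gene names are rat symbols, and identifiers and rn6 chromosomes are given as the deposited tables have them.

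The tenascins and periostin are laid down in granulation tissue and in developing or loaded tendon, where tenascins loosen cell adhesion and periostin takes part in collagen crosslinking. The thrombospondins are multimeric glycoproteins: those of the trimeric group act on cells, on proteases and on latent TGF-β, and those of the pentameric group, to which thrombospondin 4 and cartilage oligomeric matrix protein belong, bind collagens and are long known as abundant tendon and cartilage proteins. Osteopontin, the product of Spp1, is a phosphorylated integrin and CD44 ligand made by macrophages, osteoclasts and bone cells, and SPARC is a collagen chaperone.

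RNA was sequenced from the right plantaris tendon of 30 Sprague Dawley rats, 1 tendon per rat, with 7 groups in the labels. The animals were males of 3 months. The 3 control tendons came from rats with neither surgery nor compound. In the other 27 rats both plantaris tendons had been cut through and sutured, and the rats were gavaged with vehicle or with GSK2894631A, an inhibitor of hematopoietic prostaglandin D synthase, at 2 or 6 mg/kg. Vehicle and compound were given more than once a day. There were 5, 4 and 3 tendons at 7 days (7D) for the doses 0, 2 and 6 mg/kg, and 5 tendons per dose at 21 days (21D). The controls lacked the compound and its vehicle as well as the surgery, so these cannot be told apart in comparisons with control. The Achilles tendon was left intact in all 6 repaired groups.

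To show the sequence next to the start of the genes whose levels are described, the 250 bases upstream of the start used by the RefSeq promoter table (assembly GRCr8) are given for Tnn, Spp1 and Postn, the members with the largest differences from control tendons at 7D 0 mg/kg, and for Comp, which had no called difference. Each is written 5′ to 3′ on the strand of the gene. For Postn and Spp1 that start and the whole window lie inside the annotated span of the gene. For Tnc, whose window is counted below but not printed, the start also lies inside the span of the gene. Capitals mark matches to TATAAA for a TATA box, to CCAAT for a CCAAT box, to GGAATG for a TEAD site and to CANNTG for an E box, searched on both strands, none of which overlapped another.
Tnn, chr13:74919790-74920039, minus strand: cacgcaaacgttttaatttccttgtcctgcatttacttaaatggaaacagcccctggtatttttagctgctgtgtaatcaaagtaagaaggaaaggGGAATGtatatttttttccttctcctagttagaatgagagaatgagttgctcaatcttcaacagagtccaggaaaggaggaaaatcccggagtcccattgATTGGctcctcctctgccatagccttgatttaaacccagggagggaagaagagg
Spp1, chr14:5619805-5620054, minus strand: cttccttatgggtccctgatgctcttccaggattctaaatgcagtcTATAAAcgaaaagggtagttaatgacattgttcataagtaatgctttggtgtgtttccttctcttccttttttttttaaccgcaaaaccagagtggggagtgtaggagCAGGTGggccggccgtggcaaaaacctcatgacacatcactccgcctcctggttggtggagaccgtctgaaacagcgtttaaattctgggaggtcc
Postn, chr2:140677811-140678060, plus strand: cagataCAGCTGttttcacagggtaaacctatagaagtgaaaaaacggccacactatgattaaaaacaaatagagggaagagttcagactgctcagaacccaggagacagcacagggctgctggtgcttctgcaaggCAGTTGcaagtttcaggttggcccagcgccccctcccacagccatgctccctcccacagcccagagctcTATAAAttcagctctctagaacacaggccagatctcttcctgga
Comp, chr16:19089549-19089798, minus strand: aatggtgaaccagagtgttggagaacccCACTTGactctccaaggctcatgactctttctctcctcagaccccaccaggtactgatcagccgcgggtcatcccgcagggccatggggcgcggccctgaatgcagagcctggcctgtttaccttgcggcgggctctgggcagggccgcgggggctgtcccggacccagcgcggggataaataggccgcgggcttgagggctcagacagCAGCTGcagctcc

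Promoter windows were listed for 8 of the 9 members, and Thbs2 had no entry. TATAAA occurred in 3 of the 8 windows, those of Tnc, Postn and Spp1, against 12.9% of all 33469 windows of the same length. In the Postn window it lay at bases -44 to -39 from the start, and in the Spp1 window at -204 to -199. GGAATG occurred in 4 of the 8, those of Tnn, Thbs1, Thbs4 and Sparc, against 12.1% of all windows. CCAAT occurred in 2 of the 8, Tnn and Thbs1, in both on the opposite strand as ATTGG, against 34% of all windows, and CANNTG in 6 of the 8 against 65.5%. TGACTCA (AP-1) was in none of the 8 and in 4.05% of all windows, and TGTGGT (RUNX) was in the Sparc window alone, against 14.5%. These letters describe the windows, and binding was not measured.

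The libraries held 12405741 to 49909374 counts on the listed genes. Transcripts of a list of 25 measured skeletal muscle genes took between 20.9 and 30.7% of all counts in the controls, 0.0494 to 1.47% at 7D and 0.12 to 10.6% at 21D, although the tendons had been cut clear of the muscle belly. The tendon markers Tnmd (147 to 364 CPM) and Scx (19.0 to 37.2 CPM) were present in all 3 controls. Control replicate 2 stood apart, with a summed level of 2220 CPM over 11 cartilage and enthesis genes against 387 and 366 CPM in control replicates 3 and 4. With TMM scaling factors, which are set from the bulk of the genes, the median log2 fold change of all genes against control was between 0.0073 and 0.0548. With library size alone it was between 0.508 and 0.641, and 74.1 to 77.9% of the calls against control were then higher, against 48.0 to 51.3% with TMM. A list of 10 fibroblast and myofibroblast genes summed to 6507 to 19516 CPM in the controls and 39113 to 70325.5 CPM in the repaired tendons. Its part in the differences of the members from control was not tested. In bulk tissue, fewer cells of a type and less RNA per cell cannot be told apart.

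Against control tendons, the repaired tendons carried more of 6 members at 7D, Tnc, Tnn, Postn, Thbs1, Thbs2 and Spp1, at every dose. At 21D 5 of these (without Tnc) were still higher, joined by Thbs4 at every dose and by Sparc at 2 and 6 mg/kg. Comp was not called in any group, and no member was called lower. With library size alone, Sparc was also called at 7D at every dose and at 21D 0 mg/kg, Thbs4 at 7D 0 and 6 mg/kg, and Tnc at 21D 0 and 6 mg/kg. By the threshold of an adjusted p under 0.05 (edgeR quasi-likelihood test over 12558 genes), 6 of 9 members were higher at 7D 0, 2 and 6 mg/kg, where 35.8%, 35.8% and 34.1% of all genes were higher and 71.4%, 69.7% and 67.9% were called in either direction. At 21D 0, 2 and 6 mg/kg the counts were 6, 7 and 7 of 9, where 32.2%, 33.8% and 30.8% of all genes were higher, 33.7%, 35.3% and 33.3% were lower and 65.9%, 69.1% and 64.1% were called in either direction. The called share of the members in either direction was near that of all genes, while all their calls were higher. All tendons of a group lay above all controls for 6, 5 and 6 of 9 members at 7D and for 5 at each dose of 21D. Of all genes, 25 to 34.6% did so in these comparisons. The median log2 fold change of the 9 members was 2.65, 1.83 and 2.45 at 7D and 1.98, 1.61 and 1.99 at 21D, from 0 to 6 mg/kg. All 6 comparisons share the same 3 control tendons.

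**Figure D1:**
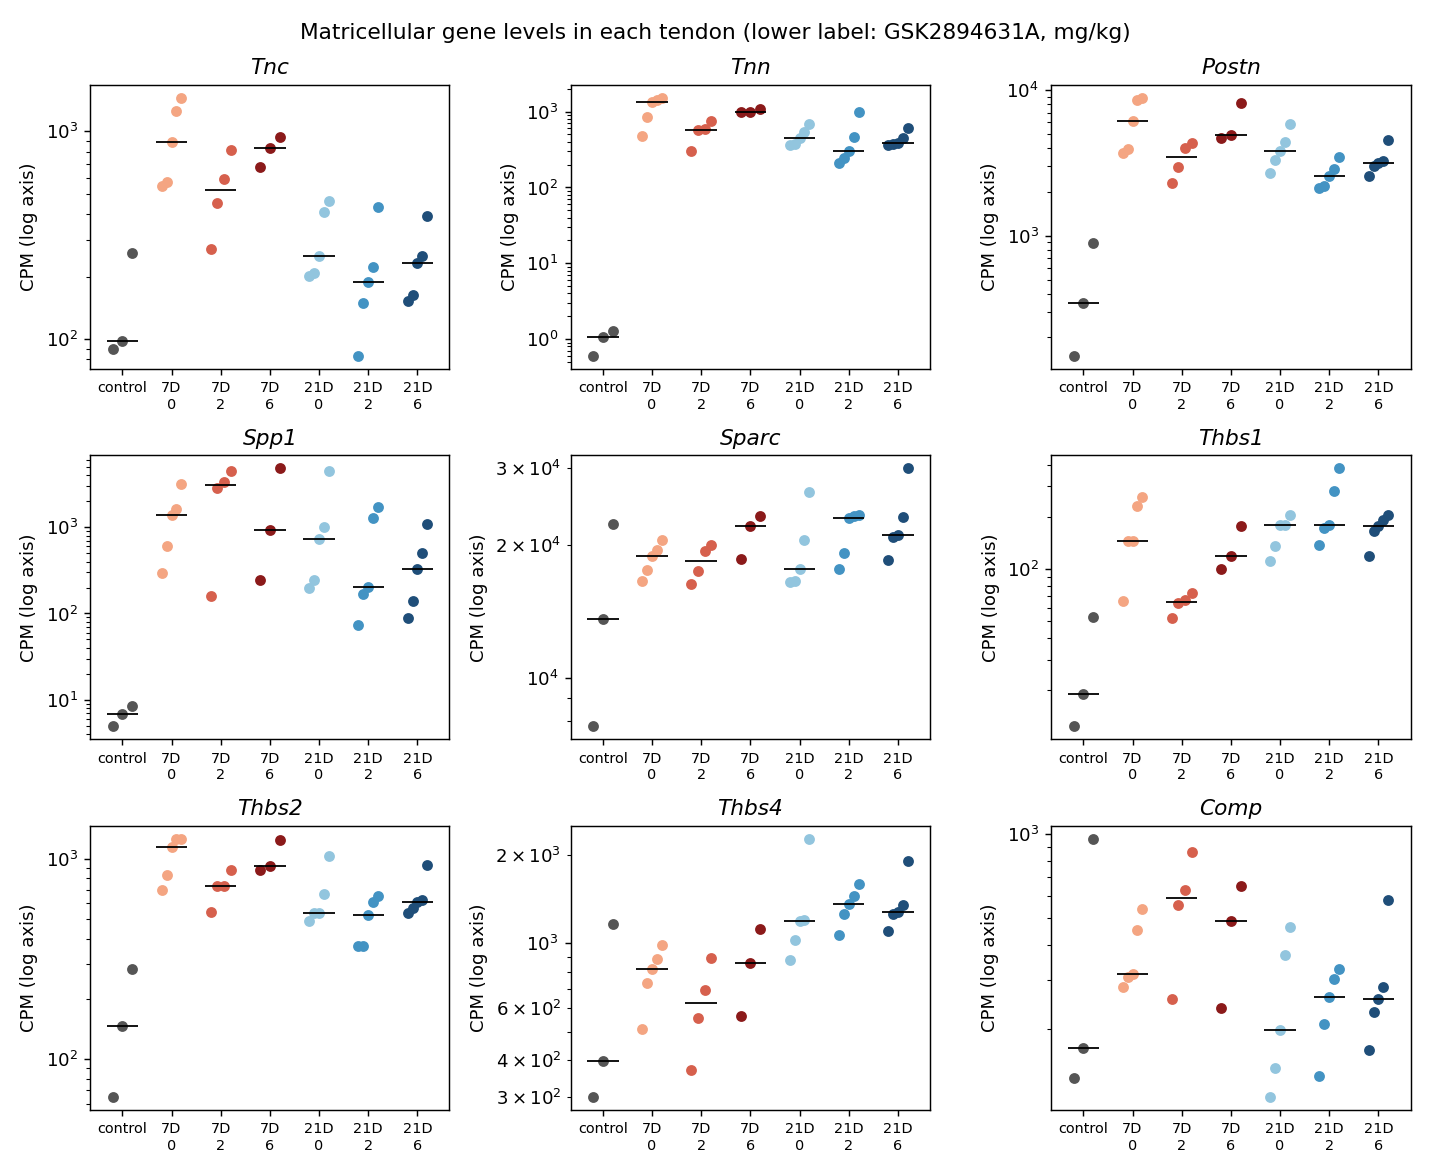
Level of each matricellular gene in each tendon, in CPM on a log axis, by group; the lower axis label is the dose in mg/kg, each point is 1 tendon and each bar is the group median. Tnn and Spp1 stand far above control in every repaired tendon, the highest Comp level of all tendons is that of control replicate 2, and Spp1 spreads by more than 10 times within each of the 6 repaired groups.

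Tnn (ENSRNOG00000002548, chromosome 13) encodes tenascin-N, also called tenascin-W, a tenascin of bone and tumor stroma. It was nearly absent from control tendons, at 1.27, 0.601 and 1.06 CPM, which rest on 27, 15 and 13 counts. Here and in what follows, the levels of a group are in the order of its replicate numbers, which are 2, 3 and 4 in the control group. The 7D 0 mg/kg tendons held 477, 1345, 1521, 1415 and 848 CPM, and the 21D 0 mg/kg tendons held 363, 533, 680.4, 376 and 449.7 CPM. At 2 mg/kg the levels were 591, 572, 300.0 and 742 CPM at 7D and 462, 248, 1003, 207 and 305 CPM at 21D. At 6 mg/kg they were 1093, 991 and 1004 CPM at 7D and 449.6, 361, 392, 609 and 376 CPM at 21D. Every one of the 27 repaired tendons was more than 100 times above the highest control. On the log2 scale the difference from control was 10.18 ± 0.67 (adjusted p = 1.35e-11) at 7D 0 mg/kg. It was 9.15 ± 0.65 (adjusted p = 9.70e-11) at 7D 2 mg/kg and 10.05 ± 0.68 (adjusted p = 9.39e-11) at 7D 6 mg/kg. At 21D it was 8.95, 8.84 and 8.82 from 0 to 6 mg/kg. These were the largest differences among the members in every group.

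Tnc (ENSRNOG00000058645, chromosome 5) encodes tenascin-C, the tenascin of wounds and of the myotendinous junction. Control tendons held 259, 98.3 and 90.2 CPM, with control replicate 2 the highest of them. The 7D tendons held 572, 894, 1249, 1451 and 547 CPM at 0 mg/kg, 589, 453, 273 and 813 CPM at 2 mg/kg and 675, 941 and 832 CPM at 6 mg/kg, all above the highest control. The log2 difference from control was 2.66 ± 0.52 (adjusted p = 7.22e-05) at 0 mg/kg, 1.83 ± 0.51 (adjusted p = 0.00268) at 2 mg/kg and 2.45 ± 0.54 (adjusted p = 0.000328) at 6 mg/kg. At 21D the groups overlapped with control, with 208, 460.4, 409.5, 251 and 203 CPM at 0 mg/kg, 222, 149, 434, 83.2 and 188 CPM at 2 mg/kg and 232, 152, 252, 394 and 163 CPM at 6 mg/kg. The log2 differences of 1.04 ± 0.48 (adjusted p = 0.0593), 0.53 ± 0.47 (adjusted p = 0.321) and 0.68 ± 0.47 (adjusted p = 0.214) did not pass the test. Without control replicate 2 the 21D differences were 1.63 (adjusted p = 0.012), 1.11 (adjusted p = 0.0666) and 1.28 (adjusted p = 0.0407).

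Postn (ENSRNOG00000012660, chromosome 2) encodes periostin, which binds collagen and tenascin-C and helps activate lysyl oxidase. Its level in control tendons was 347, 895 and 149 CPM. In the 7D 0 mg/kg tendons it was 3692, 6146, 8838, 8494 and 3943 CPM, and in the 21D 0 mg/kg tendons 3834, 5845, 4379, 3297 and 2699 CPM. The 2 mg/kg tendons held 4329.5, 4016, 2307 and 2954 CPM at 7D and 2204, 2886, 3496, 2118 and 2577 CPM at 21D. The 6 mg/kg tendons held 4900.2, 8083 and 4705 CPM at 7D and 2998, 3230.3, 4550.2, 3138 and 2586 CPM at 21D. No repaired tendon overlapped with control, and the lowest of them held 2118 CPM, above the 895 CPM of control replicate 3. The log2 differences from control were 3.75, 2.87 and 3.67 at 7D and 3.11, 2.52 and 2.83 at 21D, from 0 to 6 mg/kg, with adjusted p from 1.4e-07 to 1.78e-05.

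Thbs1 (ENSRNOG00000045829, chromosome 3) and Thbs2 (ENSRNOG00000010529, chromosome 1) encode the trimeric thrombospondins 1 and 2; thrombospondin 1 is an activator of latent TGF-β and both are inhibitors of vessel growth. Thbs1 was at 52.7, 19.0 and 12.4 CPM in control tendons. At 7D it was at 65.1, 145, 231, 259 and 145 CPM at 0 mg/kg and at 100.1, 176 and 118 CPM at 6 mg/kg. At 21D the levels were 112, 180.3, 205, 179 and 135 CPM at 0 mg/kg, 281, 179, 381, 173 and 137 CPM at 2 mg/kg and 166, 118, 177, 192 and 205 CPM at 6 mg/kg, all above the highest control. The log2 difference of Thbs1 from control was 2.59 ± 0.44 (adjusted p = 1.33e-05) at 7D 0 mg/kg and 2.53 ± 0.44 (adjusted p = 2.40e-05) at 21D 0 mg/kg. At 7D 2 mg/kg the tendons held 52.6, 63.6, 72.5 and 66.5 CPM, the lowest group of the repaired tendons, and the lowest of the 4 lay just under control replicate 2. There the difference was 1.18 ± 0.43 (adjusted p = 0.0163), and it was 0.79 (adjusted p = 0.125) without control replicate 4, 0.98 (adjusted p = 0.0759) without control replicate 3 and 1.95 (adjusted p = 0.000511) without control replicate 2. 

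Thbs2 was at 282, 147 and 64.9 CPM in control tendons. In the 7D tendons it was 695, 1144, 1253, 1258 and 829.1 CPM at 0 mg/kg, 729.8, 730.1, 542 and 875 CPM at 2 mg/kg and 918, 1245 and 883 CPM at 6 mg/kg. In the 21D tendons it was 534, 666, 1027, 488 and 534 CPM at 0 mg/kg, 522, 369, 652, 366 and 612 CPM at 2 mg/kg and 627, 536, 935, 606 and 568 CPM at 6 mg/kg. All 27 repaired tendons were above the highest control. The log2 difference from control was 2.65 ± 0.37 (adjusted p = 7.24e-07) at 7D 0 mg/kg, 2.13 at 7D 2 mg/kg and 2.62 at 7D 6 mg/kg. It was 1.98 ± 0.35 (adjusted p = 3.43e-05), 1.61 and 1.99 at 21D from 0 to 6 mg/kg.

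Thbs4 (ENSRNOG00000012471, chromosome 2) and Comp (ENSRNOG00000048472, chromosome 16) encode the pentameric members, thrombospondin 4 and cartilage oligomeric matrix protein, both bound to collagen fibrils. For both, control replicate 2 exceeded all 12 tendons of 7D, and for Comp also all 15 tendons of 21D. Thbs4 was at 1161, 299 and 397 CPM and Comp at 959, 171 and 134 CPM in control replicates 2, 3 and 4. The Thbs4 level at 7D was 509, 816, 731, 984 and 883 CPM at 0 mg/kg, 892, 556, 369 and 695 CPM at 2 mg/kg and 564, 856 and 1120.4 CPM at 6 mg/kg. At 21D it was 1024, 878, 2276, 1196 and 1201 CPM at 0 mg/kg, 1453, 1256, 1596, 1068 and 1363 CPM at 2 mg/kg and 1099, 1279.7, 1915, 1257 and 1357 CPM at 6 mg/kg. The 21D tendons stood on both sides of control replicate 2 and above the other controls. The log2 difference of Thbs4 from control was 0.34 ± 0.36 (adjusted p = 0.401) at 7D 0 mg/kg. At 21D Thbs4 was higher than control by 1.09 ± 0.37 (adjusted p = 0.0124), 1.12 ± 0.37 (adjusted p = 0.00956) and 1.16 ± 0.37 (adjusted p = 0.00873) from 0 to 6 mg/kg. These calls depended on which controls were used: without control replicate 4 they were 0.81, 0.83 and 0.88, with adjusted p of 0.0973, 0.0852 and 0.0749, and without control replicate 3 they were 0.79, 0.83 and 0.85, with adjusted p of 0.0805, 0.0653 and 0.0641.

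Comp at 7D was 283, 540.3, 308, 315 and 453 CPM at 0 mg/kg, 554, 628, 257 and 859 CPM at 2 mg/kg and 487, 239 and 649 CPM at 6 mg/kg. At 21D it was 115, 146, 464, 198 and 369 CPM at 0 mg/kg, 304, 208, 329, 136 and 261 CPM at 2 mg/kg and 256, 168, 579, 229.6 and 283 CPM at 6 mg/kg. Every group lay within or overlapped with the wide range of the controls. The log2 differences from control were -0.15, 0.45 and 0.12 at 7D and -0.70, -0.77 and -0.48 at 21D from 0 to 6 mg/kg, with adjusted p from 0.204 to 0.87. Without control replicate 2, Comp was higher than control at 7D by 1.25 (adjusted p = 0.0476), 1.86 (adjusted p = 0.00737) and 1.53 (adjusted p = 0.0258), and the 21D values became 0.71, 0.62 and 0.93 (adjusted p = 0.251, 0.305 and 0.138). Thbs4 was then higher at 7D 0 mg/kg by 1.11 (adjusted p = 0.00813), at 7D 6 mg/kg by 1.23 (adjusted p = 0.0066), and at 21D by 1.86 (adjusted p = 0.000151), 1.87 (adjusted p = 0.000116) and 1.93 (adjusted p = 0.000113) from 0 to 6 mg/kg. In the same control, the cartilage and enthesis genes Chad and Clec3a, which mark fibrocartilage near the insertion, stood at 963 and 765 CPM, the highest of the 3 controls. Control replicate 2 also had the highest summed level of 9 tenocyte genes, 37061 CPM against 19800.5 and 9255 CPM in control replicates 3 and 4. The part of such tissue or cells in the Comp and Thbs4 levels was not tested.

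**Figure D2:**
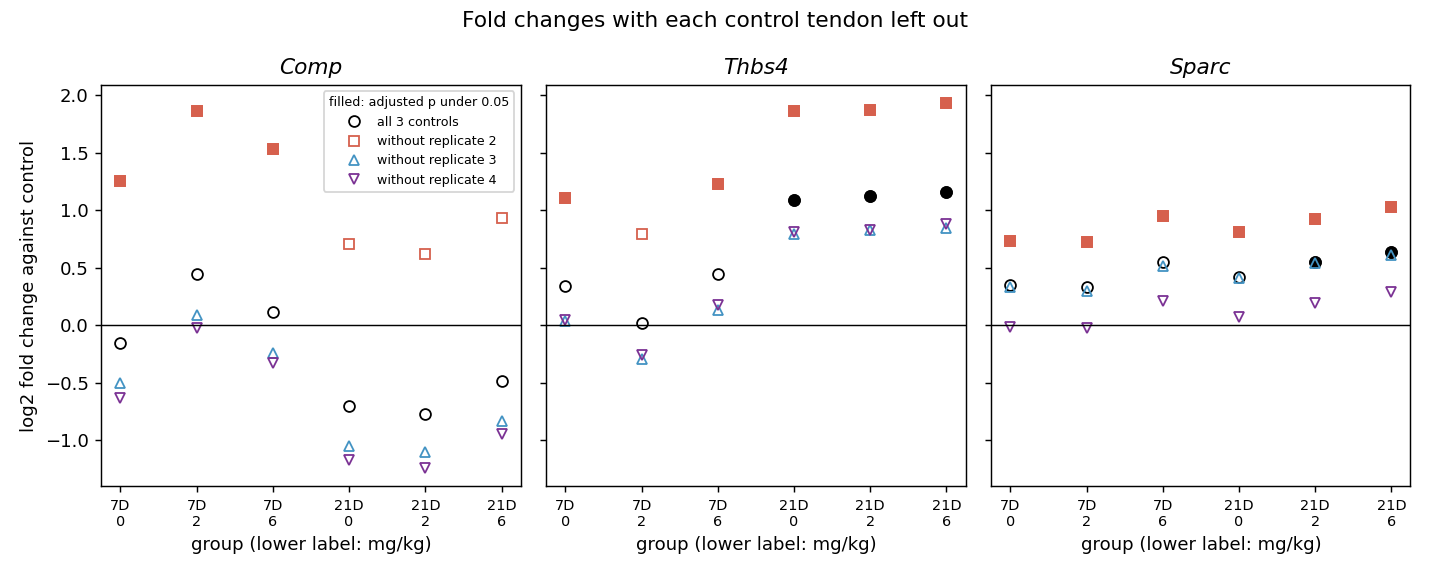
Log2 fold change against control (vertical axis) of Comp, Thbs4 and Sparc in the 6 repaired groups, with all 3 control tendons and with each control left out in turn; filled symbols have an adjusted p under 0.05. Leaving out control replicate 2 turns Comp at 7D 0 mg/kg from -0.15 to 1.25, and leaving out control replicate 4 brings Sparc at 7D 0 mg/kg from 0.35 to -0.01.

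Spp1 (ENSRNOG00000043451, chromosome 14), which encodes osteopontin, was the most variable member. Control tendons held 6.75, 4.89 and 8.33 CPM. At 7D the levels were 3189, 603, 1403, 298 and 1652 CPM at 0 mg/kg, 4491, 2863, 3371 and 159.9 CPM at 2 mg/kg and 4844, 926 and 243 CPM at 6 mg/kg. The 21D groups held 196, 4457, 245, 737 and 997 CPM at 0 mg/kg, 74.4, 1292, 167, 1737 and 202 CPM at 2 mg/kg and 88.2, 139, 505, 325 and 1106 CPM at 6 mg/kg. The lowest repaired tendon was still above the highest control. The spread within groups of repaired tendons was 1.81 (SD of log2 CPM around the group means), and 0.725% of genes had a larger one, while Sparc had 0.21 and the median gene 0.23. The log2 difference from control was 7.75 ± 1.65 (adjusted p = 0.000188) at 7D 0 mg/kg and 6.03 ± 1.52 (adjusted p = 0.00134) at 21D 6 mg/kg, and it was 8.68, 8.24, 7.64 and 6.71 in the 7D 2, 7D 6, 21D 0 and 21D 2 mg/kg groups.

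Sparc (ENSRNOG00000012840, chromosome 10), whose product binds collagen and calcium, had the smallest spread of the members. Control tendons held 22423, 13606 and 7761 CPM, with control replicate 4 the lowest of all 30 tendons, and the repaired tendons held 16304 to 29933 CPM. At 0 mg/kg the levels were 16568, 19479, 18895, 20543 and 17549.9 CPM at 7D and 17638, 16508, 26424, 20532 and 16627 CPM at 21D. Control replicate 2 lay within the repaired tendons, and control replicates 3 and 4 lay below them all. The log2 differences from control ran from 0.33 at 7D 2 mg/kg to 0.64 at 21D 6 mg/kg. The test was passed in 2 of 6 groups, 0.55 ± 0.24 (adjusted p = 0.0458) at 21D 2 mg/kg and 0.64 ± 0.24 (adjusted p = 0.0239) at 21D 6 mg/kg. Neither passed without control replicate 4, at 0.19 (adjusted p = 0.456) and 0.29 (adjusted p = 0.254), or without control replicate 3, at 0.54 (adjusted p = 0.0931) and 0.61 (adjusted p = 0.0634). Without control replicate 2 all 6 passed, from 0.72 (adjusted p = 0.011) at 7D 2 mg/kg to 1.03 (adjusted p = 0.00069) at 21D 6 mg/kg. Control replicate 4 had the highest muscle share, 30.7% of its counts against 20.9 and 21.2% in the others, and the part of muscle RNA in the Sparc difference was not tested.

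**Figure D3:**
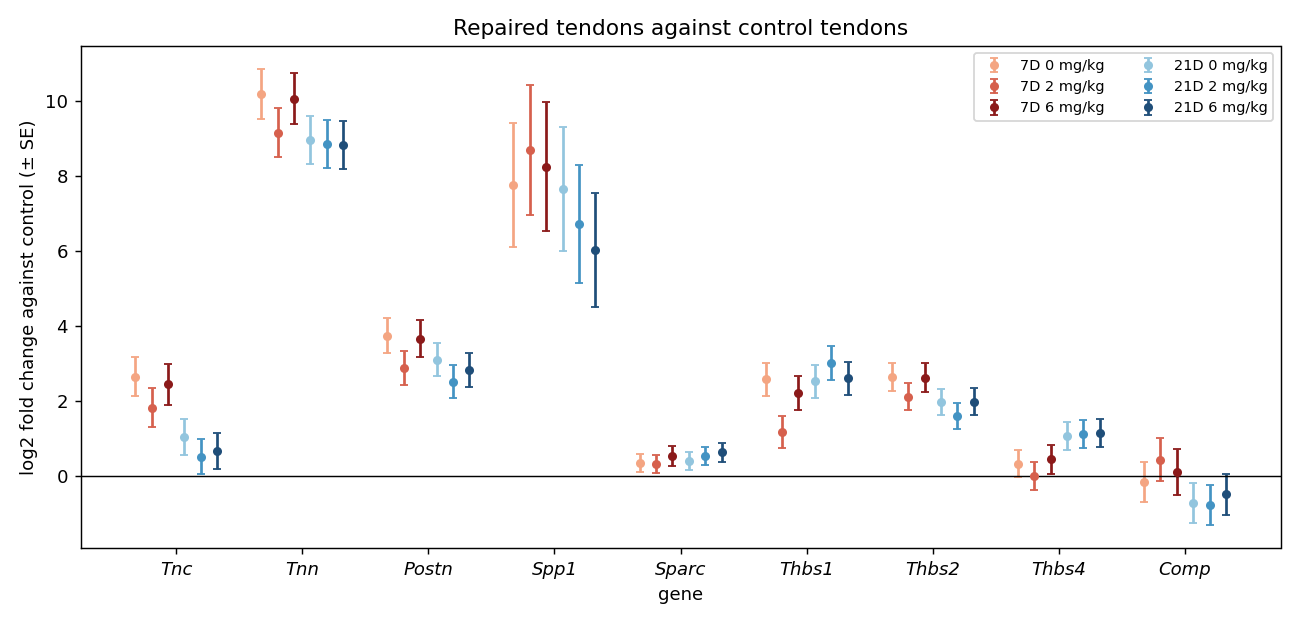
Log2 fold change against the 3 control tendons (vertical axis, ± SE) of the 9 matricellular genes in the 6 repaired groups. Tnn and Spp1 lie between 6.03 and 10.18, Postn, Thbs1 and Thbs2 between 1.18 and 3.75, and Comp on both sides of 0.

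From 7 to 21 days Tnc fell at every dose and Tnn at 0 and 6 mg/kg, while Thbs1 and Thbs4 rose at 2 mg/kg. At 0 mg/kg 2 of 9 members were called, both lower, where 5.35% of all genes were called, 2.88% higher and 2.47% lower. At 2 mg/kg 2 of 9 were higher and 1 lower, where 13.1% of all genes were called, 7.09% higher and 5.98% lower. At 6 mg/kg 2 of 9 were lower, where 13.1% of all genes were called, 8.54% higher and 4.55% lower. Tnc fell by 1.62 ± 0.41 at 0 mg/kg (adjusted p = 0.0232), by 1.30 ± 0.42 at 2 mg/kg (adjusted p = 0.0412) and by 1.77 ± 0.45 at 6 mg/kg (adjusted p = 0.0103) on the log2 scale. The 21D tendons lay wholly below the 7D tendons at 0 and 6 mg/kg, as for 3.38% and 10.6% of all genes, and overlapped with them at 2 mg/kg. Tnn fell by 1.22 ± 0.35 at 0 mg/kg (adjusted p = 0.043) and by 1.23 ± 0.39 at 6 mg/kg (adjusted p = 0.0384). At 2 mg/kg, where 1 of the 21D tendons held 1003 CPM, the Tnn difference was -0.31 ± 0.37 (adjusted p = 0.626); whether it differs from that at the other doses was tested by the time and dose interaction, with an adjusted p of 0.819.

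Thbs1 was higher at 21D than 7D at 2 mg/kg by 1.85 ± 0.38 (adjusted p = 0.00198), with 281, 179, 381, 173 and 137 CPM at 21D, all above the 7D tendons of that dose. Its difference was -0.06 ± 0.34 (adjusted p = 0.944) at 0 mg/kg and 0.38 ± 0.40 (adjusted p = 0.583) at 6 mg/kg. The time and dose interaction of Thbs1 had an adjusted p of 0.225 with edgeR and 0.028 with DESeq2. The 7D 2 mg/kg tendons, at 52.6 to 72.5 CPM, also enter the dose comparison below, so these Thbs1 calls are not separate results. Thbs4 was higher at 21D at 2 mg/kg by 1.10 ± 0.33 (adjusted p = 0.0298), without overlap, and its values at 0 and 6 mg/kg were 0.74 and 0.71 and did not pass. Of all genes, 11.3% were higher without overlap at 21D than 7D at 2 mg/kg. Postn, Thbs2, Comp, Spp1 and Sparc were not called at any dose. For Spp1 the 95% interval of the difference was -1.99 to 1.78 at 0 mg/kg, so a change of several fold could not be detected, whereas for Sparc it was -0.33 to 0.47. Without replicate 2 of 21D 0 mg/kg, which held 4457 CPM of Spp1, the Spp1 value moved from -0.11 to -1.39 (adjusted p = 0.379). 

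Several of these calls did not stand when 1 tendon was left out. The Tnc call at 0 mg/kg stood in 5 of 10 such fits and was lost without replicates 3 or 4 of 7D and without replicates 1, 4 or 5 of 21D, with values from -1.56 to -1.41 and adjusted p up to 0.073. At 2 mg/kg it stood in 2 of 9, with -1.03 (adjusted p = 0.169) without 7D replicate 5, and at 6 mg/kg in 8 of 8. The Tnn call stood in 3 of 10 at 0 mg/kg, where it was -1.09 (adjusted p = 0.123) without 7D replicate 3, and in 1 of 8 at 6 mg/kg, where it was -1.19 (adjusted p = 0.11) without 7D replicate 1. The Thbs4 call at 2 mg/kg stood in 4 of 9, with 0.92 (adjusted p = 0.0911) without 7D replicate 4, and that of Thbs1 at 2 mg/kg in 9 of 9. The muscle share was 0.0494 to 0.0824% at 7D and 0.41 to 10.6% at 21D in the tendons of 2 and 6 mg/kg, and its part in these differences was not tested.

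**Figure D4:**
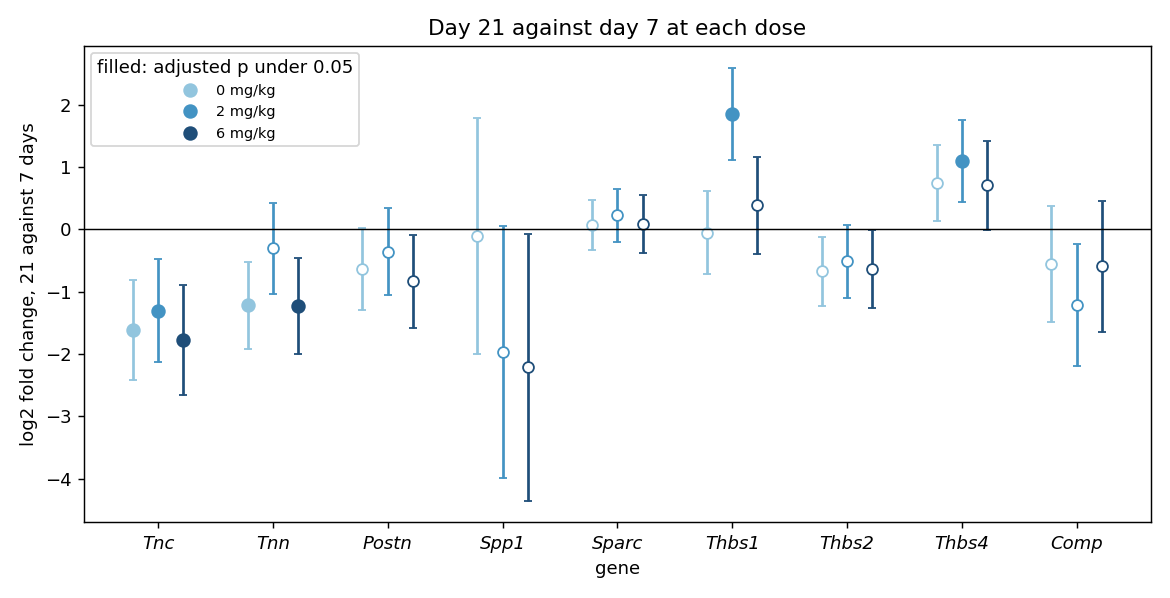
Log2 fold change of 21 against 7 days (vertical axis) for the 9 matricellular genes at each dose of GSK2894631A, with 95% intervals; filled points have an adjusted p under 0.05. Tnc is below 0 at all 3 doses, and Thbs1 at 2 mg/kg is at 1.85.

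GSK2894631A dose was compared within each time. At 7 days 1 of 9 members was called for 2 against 0 mg/kg, where 2.36% of all genes were called and 1.45% were lower. This was Thbs1, which was lower at 2 mg/kg, with a log2 difference of -1.40 ± 0.37 (adjusted p = 0.0423). Its tendons at 2 mg/kg, 52.6 to 72.5 CPM, overlapped with 1 tendon of 65.1 to 259 CPM at 0 mg/kg. The muscle share also differed without overlap between these groups, at 0.0494 to 0.0526% in the 2 mg/kg tendons and 0.287 to 1.47% in the 0 mg/kg tendons, and its part in the Thbs1 difference was not tested. At 6 mg/kg Thbs1 differed from 0 mg/kg by -0.36 ± 0.40 (adjusted p = 0.998), with a 95% interval of -1.14 to 0.42. The call was lost with limma-trend (adjusted p = 0.0695), with only the 2 groups in the fit (adjusted p = 0.0707) and in 7 of 9 fits that left out 1 tendon, with -1.20 (adjusted p = 0.136) without replicate 4 of 7D 0 mg/kg. In the test across all 3 doses, by which 2.05% of all genes and no member were called, Thbs1 had an adjusted p of 0.107 with edgeR and 0.0172 with DESeq2, and of 0.0289 with edgeR without replicate 1 of 7D 0 mg/kg.

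The other members were not called for any pair of doses at 7 days. At 2 against 0 mg/kg, Tnc, Tnn and Postn had log2 differences of -0.83, -1.02 and -0.87, with 95% intervals of -1.67 to 0.02, -1.77 to -0.28 and -1.58 to -0.16. At 6 against 0 mg/kg, where 0.39% of all genes were called, the 9 members ran from -0.36 to 0.49. At 6 against 2 mg/kg no gene was called, with edgeR, and 997 genes and 2 members had an unadjusted p under 0.05. Tnn, Postn, Thbs1 and Thbs2 did not overlap between these groups of 3 and 4 tendons, all higher at 6 mg/kg, where 5.22% of all genes were. With DESeq2, 69 genes were called for this pair, none of them a member. At 21 days no gene was called for any pair of doses with edgeR as fitted here, where 1078, 810 and 1751 genes had an unadjusted p under 0.05 for 2 against 0, 6 against 0 and 6 against 2 mg/kg, and no member did. With DESeq2 19, 1 and 254 genes were called for these pairs, none of them a member. For 6 against 2 mg/kg, edgeR called 18 genes with only the groups compared and 3 with library size alone. There the intervals for 6 against 0 mg/kg were -0.54 to 0.56 for Thbs2 and -3.55 to 0.32 for Spp1. Whether the dose effect differed between 7 and 21 days was tested by an interaction, by which 0.39% of all genes and no member were called with edgeR; the smallest adjusted p among the members was 0.225, for Thbs1, and with DESeq2 it was 0.028.

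In the order of group means, few neighbouring groups differed beyond their spread. Tnn, Postn, Thbs2 and Spp1 each had 1 of 6 neighbouring pairs called, the lowest repaired group against control, and so had Thbs1, at 7D 2 mg/kg against control. None of the 6 pairs was called for Tnc, Thbs4, Comp or Sparc. The group means of Tnc ran from 942 ± 402 CPM at 7D 0 mg/kg (SD, n = 5) to 215 ± 133 CPM at 21D 2 mg/kg (SD, n = 5) and 149 ± 95.3 CPM in control tendons (SD, n = 3). Thbs4 had its 3 highest means at 21D, from 1315 ± 554 CPM to 1381 ± 313 CPM (SD, n = 5), and its lowest in the control group, 619 ± 472 CPM (SD, n = 3).

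Among the tendons of 1 time point, several members varied together. In all, 126 relations were computed over 12 tendons at 7 days and 15 at 21 days, with permutation p values adjusted over them. Each pooled 3 doses of 3 to 5 tendons, too few for a value within a dose. Tendons were permuted across doses, so differences between doses are part of these correlations and p values. At 7 days 10 of 36 pairs of members had both adjusted p under 0.05, and at 21 days 6 of 36. The share among pairs of other genes was not computed, so these counts do not show whether the members are unusual. Tnc and Tnn were related at 7 days with r = 0.90 (adjusted p = 0.00084) and rho = 0.86 (adjusted p = 0.00871), and r was 0.80 without the 2 tendons farthest from the median of Tnc. At 21 days they had r = 0.89 (adjusted p = 0.000756), rho = 0.89 (adjusted p = 0.00151) and 0.89 without 2. Tnn and Thbs2 had r = 0.94 and rho = 0.94 at 7 days (adjusted p = 0.00063 and 0.00126) and r = 0.88 without 2. At 21 days they did not pass, with r = 0.64 (adjusted p = 0.0507), rho = 0.63 (adjusted p = 0.0669) and 0.63 without 2. Thbs4 and Comp had r = 0.83 (adjusted p = 0.00202), rho = 0.81 (adjusted p = 0.00602) and 0.71 without 2 at 21 days, and at 21 days Sparc was related to Thbs4 with r = 0.83 (adjusted p = 0.00084), rho = 0.83 (adjusted p = 0.00396) and 0.71 without 2. At 7 days Thbs4 and Comp had r = 0.28 (adjusted p = 0.519) and rho = 0.27 (adjusted p = 0.551). Thbs4 and Sparc passed at 7 days too, with r = 0.79 (adjusted p = 0.0181), rho = 0.825 (adjusted p = 0.0155) and 0.63 without 2.

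Spp1 was related to no other member at these thresholds, but it was related to the summed level of osteoclast markers, such as the proteases Ctsk and Mmp9, of which 7 of 9 were in the table. Spp1 and their summed level had r = 0.95 (adjusted p = 0.00063) and rho = 0.88 (adjusted p = 0.00617) at 7 days, and r = 0.91 (adjusted p = 0.00063) and rho = 0.96 (adjusted p = 0.00126, from the smallest p that 100000 permutations can give) at 21 days, with 0.90 and 0.90 without 2 tendons. With the summed level of 15 macrophage markers, Spp1 had r = 0.87 (adjusted p = 0.00084) and rho = 0.87 (adjusted p = 0.00151) at 21 days, with 0.78 without 2, and r = 0.73 (adjusted p = 0.0416), rho = 0.72 (adjusted p = 0.0614) and 0.79 without 2 at 7 days. The 21D 0 mg/kg tendon of replicate 2, with 4457 CPM of Spp1, also had the highest macrophage sum of its group, 12949 CPM against 2334 to 6351 CPM in the others. The 5 measured genes of an osteoblast list summed to 15.3 to 41.5 CPM in all 30 tendons. In control tendons the osteoclast sum was 110 to 224 CPM, and in repaired tendons 594 to 2336 CPM. Of its genes, the fusion gene Ocstamp, the proton pump subunit gene Atp6v0d2 and the receptor gene Oscar were at 0 to 0.283 CPM in control tendons, and at 21D 0 mg/kg they were at 0.811 to 31.6, 4.72 to 38.5 and 0.77 to 8.94 CPM. Acp5, the tartrate-resistant acid phosphatase, was at 7.6 to 14.7 CPM in control tendons and 80.5 to 151 CPM at 21D 0 mg/kg. The whole sum was 743 to 1771 CPM at 21D 0 mg/kg, so most of it came from other genes of the list. The r and rho above are for the sum and not for these genes alone. The part of such cells in the Spp1 level was not tested.

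**Figure D5:**
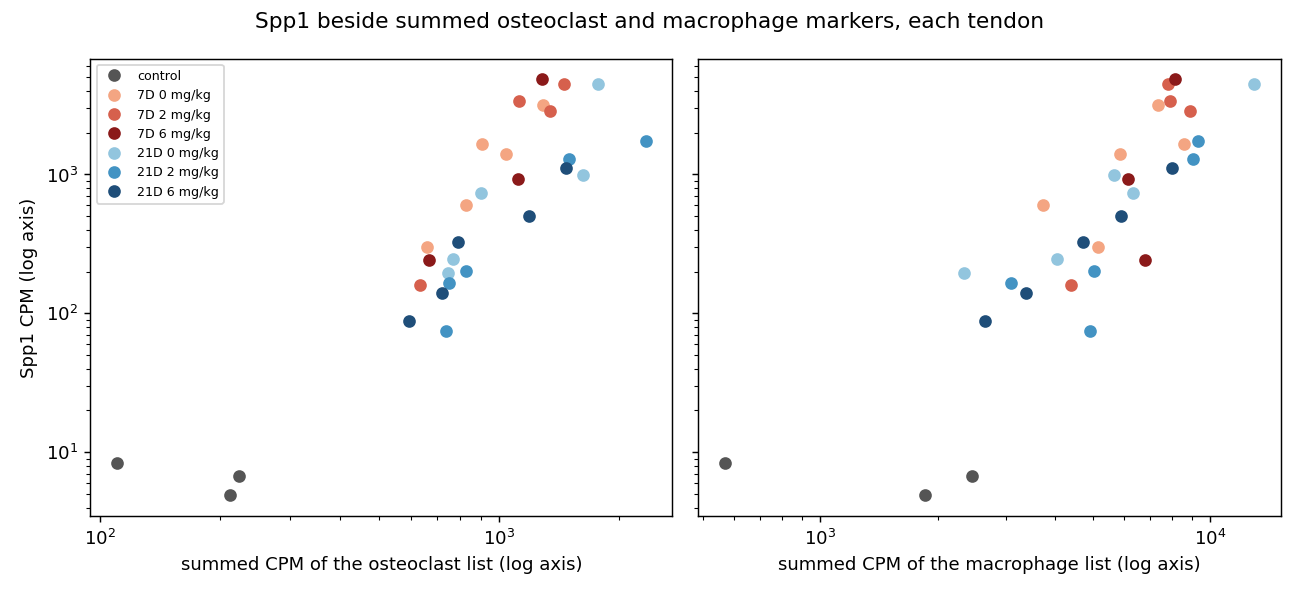
Spp1 in CPM (vertical log axis) against the summed CPM (horizontal log axis) of the osteoclast list (left) and the macrophage list (right), 1 point per tendon, colored by group. The 3 control tendons lie at the lower left, with Spp1 from 4.89 to 8.33 CPM, and the repaired tendons with the most Spp1 lie to the right in the osteoclast panel.

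The genes most like each member over the 27 repaired tendons were found by Pearson's r of log2 CPM, as a description in which group differences and depth are shared. Col12a1, a collagen of the fibril surface, was the nearest gene to Thbs2 (r = 0.96) and to Postn (r = 0.92) and among the nearest 3 of Tnn (r = 0.91). Tnc was nearest to Chsy3 (r = 0.92), Tnn (r = 0.92) and Csrp2 (r = 0.92). Spp1 was nearest to Arhgap25 (r = 0.93), Apobr (r = 0.93) and Cyfip2 (r = 0.92). Thbs4 was nearest to Dkk3 (r = 0.91), Comp to C1s (r = 0.81), Sparc to Vkorc1 (r = 0.86) and Thbs1 to Enox1 (r = 0.86).

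Of 27 other matricellular genes measured, 17 were higher and 5 lower than control at 7D 0 mg/kg, with a median log2 fold change of 1.002, and 16 were higher and 3 lower at 21D 0 mg/kg, with a median of 0.97, where the medians of all genes were 0.05 and 0.03. Of all genes, 35.8% were higher and 35.6% lower at 7D 0 mg/kg, and 32.2% and 33.7% at 21D 0 mg/kg. Efemp2, a fibulin of elastic and collagen fibers, rose by 2.57 ± 0.17 at 7D and 1.82 ± 0.17 at 21D. The CCN family genes Wisp1 at 7D and Wisp2 at 21D rose by 2.48 ± 0.34 and 3.64 ± 0.45. Spock2, a testican proteoglycan, fell by 2.83 ± 0.40 at 21D. From 7 to 21 days at 0 mg/kg, Efemp2 fell by 0.75 ± 0.13 while Nov, Smoc2 and Igfbp5 rose by 1.28 ± 0.26, 1.59 ± 0.35 and 0.83 ± 0.20, among 4 higher and 1 lower of the 27, where 5.35% of all genes were called.

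Of 21 receptors of matricellular proteins measured, 12 were higher and 2 lower at 7D 0 mg/kg and 11 higher and 2 lower at 21D 0 mg/kg, with median log2 fold changes of 0.71 and 0.75. The number called, 14 and 13 of 21, lay near the 71.4% and 65.9% of all genes called in these comparisons. Cd44, which binds osteopontin and hyaluronan, rose by 2.53 ± 0.38 at 7D and 3.25 ± 0.40 at 21D, and Itga5, the fibronectin receptor chain, by 1.57 ± 0.20 at both. Calr, a chaperone that is also a thrombospondin receptor at the cell surface, rose by 0.98 ± 0.13 at 7D and 0.75 ± 0.12 at 21D. Cacna2d1, a calcium channel subunit and thrombospondin receptor that skeletal muscle also expresses, fell by 3.88 ± 0.55 at 7D and 2.73 ± 0.53 at 21D, beside the muscle shares given above. Of 14 matrix partners measured, 13 were higher at 7D 0 mg/kg and 12 at 21D 0 mg/kg, with none lower, and the median log2 fold changes were 2.18 and 2.04, where 35.8% and 32.2% of all genes were higher. Col12a1 rose by 3.05 ± 0.44 at 7D, Lox, which crosslinks collagen, by 2.50 ± 0.30 at 7D and 2.00 ± 0.29 at 21D, and Fn1 by 3.10 ± 0.46 at 21D. Among the receptors and matrix partners, 1 receptor (Stab1, a scavenger receptor of macrophages and endothelium, lower by 1.29 ± 0.39 on the log2 scale, adjusted p = 0.0495) and none of the matrix partners were called between 21 and 7 days at 0 mg/kg, where 5.35% of all genes were called.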

How the data were processed

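Plantaris tendons of 30 rats were analysed as gene counts. The authors trimmed reads with fastp, mapped them to rn6 with STAR against Ensembl annotation, left out samples of low read quality and deposited raw counts per gene. The labels give 3 tendons at 7D 6 mg/kg and were followed. In a second table, the authors deposited log2 fold changes, an average log2 CPM per gene, p-values and false discovery rates of their edgeR comparisons, which were not used, with the chromosome and the width of each gene in bases as other values. Groups came from the time and dose in the labels.

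The 12558 of 13124 genes whose mean reached 3 CPM in any group were tested with edgeR 4.0.16 (R 4.3.3), with TMM factors, quasi-likelihood tests, 1 mean per group over all 30 tendons and Benjamini-Hochberg adjustment over all genes tested. A call is an adjusted p under 0.05. CPM values were scaled by TMM. Alternatives were limma 3.58.1, DESeq2 1.42.0, other scalings and filters, a replicate block, only the groups compared, and leaving out each tendon. The test was also run on simulated counts in which few genes changed, in 1 group. Far more genes were called against control in the data, so that run does not check the scaling used there. Correlations used 100000 permutations, two-sided, and intervals are 1.96 SE on either side. No 2 tendons of a group differed by as little as sampling noise (chi-square per gene, lowest 29.6). The depth was 12405741 to 49909374 counts per tendon. Nothing in the labels pairs tendons, and p-values measure the spread between rats. Gene symbols of promoters were matched to RefSeq (GRCr8). All 9 members were named, the list genes were the 4 with the smallest adjusted p in a list at 7D 0 mg/kg, at 21D 0 mg/kg or between these times, and likeness gave 3 genes per member. A gene that this rule names is not reported here. The members and lists were chosen with earlier results of these data known.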

Additional observations from a re-analysis of the deposited data

Results flagged for a closer look

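In the 45 combinations of a member and a group of 4 or 5 tendons, 4 had a highest tendon whose gap to the next, as a share of the whole range, passed Dixon's 95% limit. By chance alone, about 1 in 20 of the combinations would be flagged. The limit was applied to CPM and not to log2 CPM. Spp1 in the 21D 0 mg/kg group was 4457 CPM in replicate 2 against 997 CPM in the next tendon, a gap of 0.812 of the range. Thbs4 in the same group was 2276 CPM in replicate 3 against 1201 CPM, a gap of 0.769. In the 21D 6 mg/kg group replicate 3 was highest for Thbs2, with 935 against 627 CPM and a gap of 0.774, and for Comp, with 579 against 283 CPM and a gap of 0.722. The same tendon had the highest Thbs4 and Sparc of its group.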

How the results depend on the processing

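With RLE factors, library size alone, muscle genes left out of the scaling, no filter, filterByExpr, DESeq2, limma-trend, only the groups compared or a replicate block, the number of members higher than control stayed within 1.5 times of that reported in all 6 groups, as it did without any 1 tendon. This limit was loose, since with 9 members a count of 6 could not rise past it. Without control replicate 2 the count was 9 at 7D 0 and 6 mg/kg, in place of 6. Without control replicate 3 or 4 it was 5 at 21D 2 and 6 mg/kg, in place of 7. The calls between times and doses moved as well. The number of members lower at 21 than 7 days at 0 mg/kg was 1 with limma-trend and with only the groups compared, in place of 2, and 0 to 2 without 1 tendon. At 2 mg/kg the number higher was 1 to 2 and the number lower 0 to 1 without 1 tendon, and at 6 mg/kg the number lower was 1 to 2. The 1 member lower at 2 than 0 mg/kg at 7 days gave 0 with limma-trend and with only the groups compared, and 0 to 1 without 1 tendon. With DESeq2, 1 member (Thbs1) changed across doses at 7 days and 1 had a dose effect that differed between times, in place of 0 with edgeR. With edgeR, 0 to 1 members changed across doses at 7 days without 1 tendon.

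With a replicate block, the number of members lower at 21 than 7 days at 2 mg/kg was 0 in place of 1, and the number lower at 2 than 0 mg/kg at 7 days was 0 in place of 1. Nothing in the labels pairs tendons by replicate number. The median correlation of deviations from the group means was 0.007 (-0.70 to 0.68) over 76 pairs of the same number. It was 0.009 (-0.67 to 0.78) over 307 pairs of different numbers. With so wide a range, the medians do not decide whether tendons of the same number are related.

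Signs turned only for values that had not been called, and the cause of these shifts was not tested. Comp at 7D 0 mg/kg against control was 0.40 with library size alone and 0.39 with limma-trend. Thbs4 at 7D 2 mg/kg was -0.01 with RLE factors, -0.03 with muscle genes left out of the scaling and -0.01 with DESeq2. Thbs1 for 21 against 7 days at 0 mg/kg was 0.06 with limma-trend. Without 1 tendon, Comp against control ran from -0.63 to 1.25 at 7D 0 mg/kg, -0.02 to 1.86 at 7D 2 mg/kg, -0.33 to 1.53 at 7D 6 mg/kg, -1.17 to 0.71 at 21D 0 mg/kg, -1.24 to 0.62 at 21D 2 mg/kg and -0.94 to 0.93 at 21D 6 mg/kg. Thbs4 at 7D 2 mg/kg ran from -0.29 to 0.79, and Sparc from -0.01 to 0.73 at 7D 0 mg/kg and -0.02 to 0.72 at 7D 2 mg/kg. For 21 against 7 days, Thbs1 at 0 mg/kg ran from -0.26 to 0.15, Spp1 at 0 mg/kg from -1.39 to 0.42, and Sparc from -0.06 to 0.13 at 0 mg/kg and -0.03 to 0.16 at 6 mg/kg. Sparc for 2 against 0 mg/kg at 7 days ran from -0.07 to 0.03. With 3 controls, 1 tendon decides the sign of Comp and the Thbs4 and Sparc calls.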
